A study of Mus musculus with 12 samples.

Results

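The cells described here are enterocytes of the mouse small intestine that carry the ileal bile acid transporter gene Slc10a2. They were taken from a single-cell RNA table of 27881 cells and 20090 genes. A cell was eligible if it had a value above 0 for Slc10a2 and a value of 0 for both S100g, a calcium-binding protein of the upper intestine, and Nt5e, an ectonucleotidase of villus tip cells. Slc10a2 had a value in 2390 cells, of which 464 were left out for S100g or Nt5e, so that 1926 were eligible. Eligible cells were ranked by a score, the mean over 6 genes of log1p of the value per 10000, and the 600 highest-scoring cells were kept, 2.15% of all cells. The scoring genes were Slc10a2, Fabp6, Tmigd1, Slc25a48, Fgf15 and Abi3bp. The 600 cells are called Slc10a2 ileal enterocytes below. Scores reached 2.997, the last cell kept had 1.674 and the first left out had 1.67365, and 116 of the cells kept lay within 0.1 of that boundary. The levels of the scoring genes, S100g and Nt5e were fixed by the choice of cells and are given as description only. The position of a cell along the intestine was not used, so "ileal" rests on these genes alone.

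The study divided the small intestine of adult mice of the strain Lgr5DTR-GFP, which carries a diphtheria toxin receptor and GFP at the stem cell gene Lgr5, into 30 pieces. MULTI-seq barcodes marked the cells by piece before they were sorted, pooled and sequenced from the 3′ end. The table belongs to the 8 diet samples, epithelial cells sorted as CD45- and EpCAM+, and the labels do not name their diets. The 2 total epithelium and 2 progenitor samples of the series were not analysed here.

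Bile acids made in the liver are recovered at the end of the small intestine. Slc10a2 takes them up with sodium at the apical membrane, Fabp6 binds them in the cytosol, and the heterodimer of Slc51a and Slc51b releases them at the basal side. The bile acid receptor Nr1h4 (FXR) responds to them in these cells and induces Fgf15, a hormone that lowers bile acid synthesis in the liver. The ileum is also where the complex of vitamin B12 and intrinsic factor is taken up, by a receptor of Cubn and Amn.

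The table gives no map from cells to samples, and its values were treated as scores and not as counts. The cell barcodes end in 1 of 8 numbers, here called barcode sets, which do not match the sample titles. A gene's level is its share, in ppm, of the summed values of a group within a set, averaged over the sets that hold at least 30 cells of both groups. A difference is the log2 ratio of a pair of such levels with 1 ppm added to each, positive where the Slc10a2 ileal enterocytes were higher, and stands in parentheses after the levels. A gene was considered from a mean level of 10 ppm, and was called higher or lower where the difference was at least 1 in size and had the same direction in every set used. With 1 pooled table there is no replicate test, no standard deviation over replicates and no p-value, and the cells were chosen by their values. All differences below are therefore descriptions, and the spread given with them is that over barcode sets, which are not known to be separate animals.

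Every set held Slc10a2 ileal enterocytes, in unequal shares. Set 6 had the highest share, 169 cells or 5.76% of the set (exact binomial 95% interval 4.95 to 6.67, counting error only). Set 2 had the lowest, 24 cells or 0.524% (0.336 to 0.778). Sets 1, 3, 6, 7 and 8 held 118, 66, 169, 36 and 146 of the cells and could be compared set by set, while sets 2, 4 and 5 held 17 to 24 each and entered no level. None of the cells shared its barcode sequence with a cell of another set, although 80 pairs of cells in the whole table did. The Slc10a2 ileal enterocytes had a median summed value of 4859 and 1899.5 detected genes, against 5109 and 1814 in other enterocytes.

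The label of mature enterocytes was checked against marker genes. Of the 600 cells, 573 (95.5%) had both Fabp2 and Apoa1, the fatty acid binding and apolipoprotein genes that defined enterocytes here. The 10 enterocyte markers summed to 28862 ppm in Slc10a2 ileal enterocytes (23016 to 35603 over sets), against 19128 ppm in other enterocytes (6712 to 32276). The 10 stem cell markers summed to 635 ppm (306 to 1024), against 2502 ppm (1303 to 3640.3), and were lower in each of the 5 sets. The 11 transit-amplifying markers summed to 369.9 ppm (211 to 667), against 1098 ppm (607 to 2160.3). The Slc10a2 ileal enterocytes thus held more transcripts of differentiated and fewer of crypt cells than the other enterocytes as a whole.

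Transcripts of secretory cells were present in all groups. Goblet cell markers summed to 4446 ppm in Slc10a2 ileal enterocytes, against 5268 ppm in other enterocytes, and Paneth cell markers to 4686 ppm, against 5838 ppm. Defa24, a Paneth cell defensin, had a value in 88.8% of Slc10a2 ileal enterocytes, in 96.0% of other enterocytes and in 96.7% of cells with Lgr5. Markers of tuft cells summed to 25.3 ppm, against 35.04 ppm. Those of T cells, B or plasma cells, myeloid, endothelial and red blood cells summed to 1.19 to 10.0 ppm, against 1.98 to 33.8 ppm in other enterocytes. Myeloid markers were higher, at 10.0 ppm (up to 31.7 ppm in a set), against 8.05 ppm, as were endothelial markers, at 3.35 ppm, against 2.93 ppm. Some markers of these lists, among them Cd3e, Ptprc, Cd79a and C1qa, were at 0, and others were not. Stromal markers were all at 0 in Slc10a2 ileal enterocytes.

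The main comparator was the 17285 other cells with Fabp2 and Apoa1, called other enterocytes, of which 1542 had a value for Slc10a2. Of 8295 genes considered, 288 (3.47%) were called higher in Slc10a2 ileal enterocytes and 1052 (12.7%) lower, and the median difference of all considered genes was -0.13. Because the other enterocytes carried the higher crypt marker levels given above, a second comparator was added after these values had been seen. It holds the 6753 other enterocytes above a limit for 8 enterocyte markers and below a limit for crypt markers, and is called the mature enterocytes. Both limits came from the Slc10a2 ileal enterocytes and did not match the groups. The 10 enterocyte markers summed to 35631 ppm in mature enterocytes, against 28862 ppm in Slc10a2 ileal enterocytes, which were lower in all 5 sets. Stem cell markers summed to 475 ppm in mature enterocytes, against 635 ppm. All these markers helped to choose the mature enterocytes, so the sums describe that choice and do not measure maturity. Marker levels were therefore not equal in this comparison, and equal maturity was not shown. Against mature enterocytes, 162 genes (2.09% of 7742) were called higher and 272 (3.51%) lower, with a median of -0.00. Of the 288 genes higher against other enterocytes, 114 were also called higher against mature enterocytes and 0 had the opposite sign. Of the 1052 lower genes, 136 were also called lower against mature enterocytes and 276 had the opposite sign. Both comparators share the Slc10a2 ileal enterocytes and the mature enterocytes are part of the other enterocytes, so the comparisons are not independent. Counts of called genes within a list stand beside these shares of all genes, and medians of lists leave out genes that chose the cells compared.

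The basolateral bile acid exporter and the bile acid receptor were higher. Slc51a, a subunit of the basolateral exporter (GRCm38 chr16:32474504-32487879, minus strand), was at 1000.2, 995, 1216, 926 and 1268 ppm in Slc10a2 ileal enterocytes of sets 1, 3, 6, 7 and 8, against 228, 142, 312, 72.3 and 271 ppm in other enterocytes. Slc51b, its partner (chr9:65412714-65422955, minus strand), was at 718, 484, 1112, 735 and 1116 ppm in Slc10a2 ileal enterocytes, against 178, 111, 374, 71.1 and 315 ppm in other enterocytes. Nr1h4, the receptor (chr10:89454234-89533585, minus strand), was at 612, 660.1, 491, 444 and 622 ppm in Slc10a2 ileal enterocytes, against 143, 103, 175, 92.6 and 157 ppm in other enterocytes. The ranges of the groups did not overlap for any of these genes, and other enterocytes of set 7 were lowest in each. Here and below, overlap is given as description only. Most named genes were picked for large differences with the same direction in every set. That direction was shared by all sets in 45.0% of considered genes, and the share of genes without overlap was not counted. The log2 differences were 2.39 for Slc51a, 1.98 for Slc51b and 2.07 for Nr1h4. Against mature enterocytes they were 1.73, 1.23 and 1.95.

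**Figure D1:**
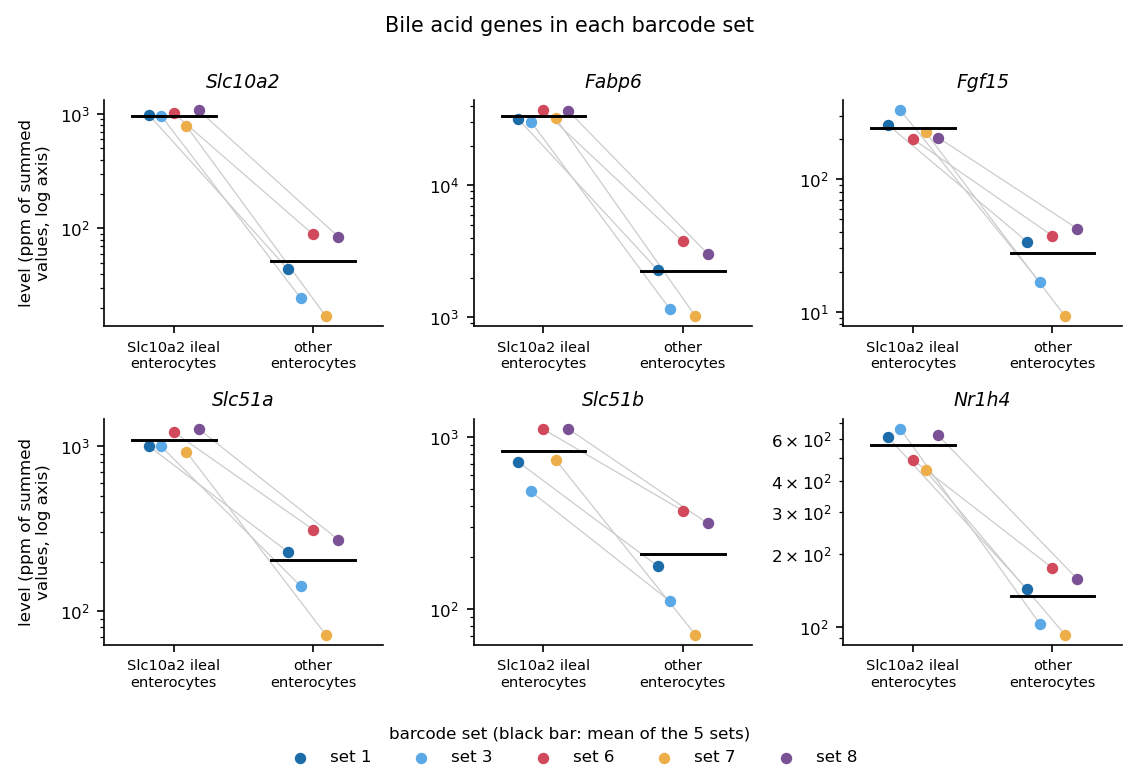
Levels (ppm of summed values, log axis) of bile acid genes in Slc10a2 ileal enterocytes (left) and other enterocytes (right). Points are barcode sets, grey lines join the same set, and black bars are the mean of the 5 sets. Slc10a2, Fabp6 and Fgf15 chose the cells, while Slc51a, Slc51b and Nr1h4 did not. Slc51a spans 926 to 1268 ppm on the left and 72.3 to 312 ppm on the right.

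Slc51a had a value in 91.3% of Slc10a2 ileal enterocytes, in 36.0% of other enterocytes and in 8.02% of cells with Lgr5, which had a higher median of 2292 detected genes. For Slc51b the shares were 85.2%, 33.8% and 6.90%, and for Nr1h4 81.0%, 31.1% and 23.8%. Of the 600 cells, 418 had values for all 3 genes at once. Fabp6 had a value in all 600 cells, in 55.4% of other enterocytes and in 34.9% of cells with Lgr5. The other enterocytes include cells with Slc10a2, and the Paneth cell gene Defa24 had a value in 96.7% of cells with Lgr5, so a value alone does not show that a cell expresses the gene. For Slc10a2 the share was 8.92% in other enterocytes and 2.38% in cells with Lgr5.

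Of the 15 genes of the bile acid list, 10 were considered and 7 were called higher. Besides Slc10a2, Fabp6 and Fgf15, which chose the cells, these were Slc51a, Slc51b, Nr1h4 and Osgin1, an oxidative stress gene, against a background of 3.47% of all genes. The 7 genes that did not choose the cells had a median of 1.08, beside -0.13 for all genes, and of 0.33 against mature enterocytes. With the 3 scoring genes the medians were 2.03 and 1.48. Osgin1 was at 68.9 ppm, against 32.1 ppm (1.08), and was not called without set 7 (0.81), without set 3 (0.92) or against mature enterocytes (0.33). Exporters of conjugates did not follow against other enterocytes. Abcc2, an apical pump, was at 341 ppm, against 339.9 ppm (0.01) and Abcc3, a basolateral relative, at 23.1 ppm, against 25.8 ppm (-0.15). Cyp3a11, which hydroxylates bile acids and drugs and has close relatives that may share its reads, was at 41.9 ppm, against 105 ppm (-1.30) and was called lower against mature enterocytes (-2.18). The genes that chose the cells were at 966 ppm, against 51.9 ppm, for Slc10a2, 33664 ppm, against 2248 ppm, for Fabp6 and 245 ppm, against 27.9 ppm, for Fgf15.

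The promoters of this pathway are shown because several of its genes were higher. RefSeq windows on GRCm38.p6 were found for 7 of the 9 genes sought, and the 250 bases before the RefSeq start are printed 5′ to 3′ on the strand of the gene. Capitals mark matches on either strand to AGATAA (letters of the GATA family), TTTATG (letters of the CDX family), AGGTCA (the core element of nuclear receptors), GTTAAT (a core element of HNF1) or the inverted repeat of the nuclear receptor element with a spacer of 1 base, the form bound by FXR. The inverted repeat was added after the Fabp6 window had been read. All 5 windows lie on the minus strand, at chr8:5105288-5105537 for Slc10a2, chr11:43601563-43601812 for Fabp6, chr16:32487880-32488129 for Slc51a, chr9:65422774-65423023 for Slc51b and chr10:89506659-89506908 for Nr1h4. The Nr1h4 window lies before the start of a shorter transcript, 26927 bases inside the gene span given above, while the starts of the other windows are 0 to 182 bases from the GENCODE gene start.
Slc10a2: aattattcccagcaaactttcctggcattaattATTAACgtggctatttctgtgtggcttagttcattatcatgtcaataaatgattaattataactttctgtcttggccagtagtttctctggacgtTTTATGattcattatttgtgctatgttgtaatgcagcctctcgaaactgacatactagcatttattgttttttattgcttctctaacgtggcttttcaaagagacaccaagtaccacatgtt
Fabp6: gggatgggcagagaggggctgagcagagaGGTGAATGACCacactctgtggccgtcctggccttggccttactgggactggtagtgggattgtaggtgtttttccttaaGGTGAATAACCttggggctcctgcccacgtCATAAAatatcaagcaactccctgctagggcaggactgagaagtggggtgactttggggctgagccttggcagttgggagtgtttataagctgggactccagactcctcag
Slc51a: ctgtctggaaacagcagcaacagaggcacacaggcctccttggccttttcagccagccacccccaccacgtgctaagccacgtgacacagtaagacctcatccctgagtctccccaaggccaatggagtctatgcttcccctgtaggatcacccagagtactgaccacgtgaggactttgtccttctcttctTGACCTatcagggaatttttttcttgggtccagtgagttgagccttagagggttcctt
Slc51b: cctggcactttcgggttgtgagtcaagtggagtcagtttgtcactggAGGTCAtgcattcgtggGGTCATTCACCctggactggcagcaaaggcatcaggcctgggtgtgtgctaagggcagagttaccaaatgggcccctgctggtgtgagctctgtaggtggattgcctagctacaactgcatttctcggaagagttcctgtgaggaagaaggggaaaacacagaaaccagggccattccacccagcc
Nr1h4: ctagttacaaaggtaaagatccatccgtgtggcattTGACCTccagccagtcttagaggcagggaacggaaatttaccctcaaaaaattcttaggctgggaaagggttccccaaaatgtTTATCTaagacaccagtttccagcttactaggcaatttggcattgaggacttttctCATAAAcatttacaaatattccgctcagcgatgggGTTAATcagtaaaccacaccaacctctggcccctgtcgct

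The Fabp6 window holds 2 inverted repeats, starting at -221 and -141 from the RefSeq start, and the Slc51b window holds 1, starting at -186. The Slc51b and Nr1h4 windows each hold 1 AGGTCA match, as does the Slc51a window. No match in these windows overlapped another. Over all 32851 RefSeq promoter windows of 300 bases, 0.262% hold the inverted repeat, 16.3% AGGTCA, 11.9% TTTATG, 11.2% AGATAA and 7.10% GTTAAT. With the scoring genes left out, since Fabp6 prompted the search and chose the cells, 2 of the 299 windows of genes called higher hold the inverted repeat (0.669%), against 21 of the 8471 windows of considered genes (0.248%). The 2 are those of Slc51b and Rdh9, a retinol dehydrogenase gene at 64.6 ppm, against 29.9 ppm (1.09). AGGTCA was found in 16.7% of the same windows of higher genes and in 13.1% of those of considered genes. The share of the inverted repeat among higher genes rests on 2 windows. A match shows only that these letters are present, and no binding was measured.

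The genes outside the score whose share of cells differed most from other enterocytes were, except for Slc51a, not bile acid genes. The first of 10 was Slc13a1, the sodium sulfate cotransporter, with a value in 88.0% of Slc10a2 ileal enterocytes, against 29.9% of other enterocytes (mean of the 5 sets). Cubn followed with 87.2%, against 29.8%. The others were Slc51a, the peptidases Mep1a, Naaladl1 and Dpep1, the aspartoacylase Aspa, the ubiquitin ligase Rnf152, and the transporters Slc5a8 and Slc34a2. Their shares were 63.4% to 91.4% in Slc10a2 ileal enterocytes, against 18.03% to 44.3% in other enterocytes.

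Transporters of sulfate, magnesium and short-chain acids were higher. Slc13a1 was at 1385, 1059, 1079, 1111 and 1290.3 ppm in sets 1, 3, 6, 7 and 8 of the Slc10a2 ileal enterocytes, against 195, 116, 289, 70.0 and 237 ppm in other enterocytes (2.70). Its groups did not overlap. Suox, which oxidises sulfite to sulfate, was at 162 ppm, against 21.5 ppm (2.86). Trpm6, a magnesium channel, was at 181 ppm, against 27.8 ppm (2.66), and Slc5a8, which takes up lactate and short-chain fatty acids with sodium, at 273 ppm, against 61.7 ppm (2.13). Guca2a, which encodes guanylin, a peptide that stimulates salt and water secretion, was at 1253 ppm, against 395 ppm (1.66). These genes were also called higher against mature enterocytes, by 2.01 for Slc13a1, 2.68 for Suox, 2.29 for Trpm6, 1.36 for Slc5a8 and 1.21 for Guca2a. In the list of 29 salt, water and short-chain acid genes, 6 of 23 considered were higher and 2 lower, and the median was 0.49. Against mature enterocytes the median was 0.13.

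The receptor of the vitamin B12 pathway was higher. Cubn was at 1255, 886, 1029, 942 and 1273 ppm in Slc10a2 ileal enterocytes, against 362, 196, 309.7, 71.5 and 303 ppm in other enterocytes of the same sets (2.11), with no overlap between the groups. Amn, its membrane anchor, was at 215 ppm, against 104 ppm (1.04), and at 0.79 without set 7. Tcn2, the transcobalamin that carries B12 onward, was at 359 ppm, against 148 ppm (1.28), and Lgmn, a lysosomal protease, at 47.3 ppm, against 12.5 ppm (1.84). Of 12 considered genes of this list, these 4 were called higher and 0 lower, and the median was 0.64. Against mature enterocytes Cubn (1.27) and Lgmn (1.47) were called, while Amn (0.27) and Tcn2 (0.58) were not.

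Peptidases of the brush border and amino acid carriers were the list with the most calls, 15 higher and 1 lower of 23 considered. Mep1a, the alpha subunit of meprin, was at 616, 473, 806, 455 and 901 ppm in Slc10a2 ileal enterocytes, against 145, 78.0, 236, 52.3 and 225 ppm in other enterocytes (2.14). The lowest set of Slc10a2 ileal enterocytes was above the highest set of other enterocytes. Naaladl1, a peptidase, was at 1030.4 ppm, against 238 ppm (2.11), Xpnpep2, which cleaves before proline, at 276 ppm, against 69.4 ppm (1.98), and Enpep, aminopeptidase A, at 1276 ppm, against 399 ppm (1.67). The peptide transporter Slc15a1 was at 373 ppm, against 295 ppm (0.34). Slc7a8, a basolateral amino acid exchanger, was the lower gene, at 45.3 ppm, against 99.3 ppm (-1.11). The list's median was 1.12, but 0.34 against mature enterocytes, where 4 genes were called higher and 2 lower. Mep1a (1.38), Naaladl1 (1.31), Xpnpep2 (1.28) and Slc1a1, a glutamate carrier (2.01), were called there, while Enpep (0.99) and Slc6a19, a neutral amino acid carrier (0.30), were not.

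Brush border structure genes also depended on the comparator. Pdzk1, a scaffold of apical transporters, was at 342 ppm, against 133 ppm (1.36), Espn, an actin bundler, at 339 ppm, against 151 ppm (1.16), and Cdhr2, a cadherin that links microvilli, at 882 ppm, against 402 ppm (1.13). Without set 7 they were at 1.16, 0.99994 and 0.90, so that the call of Espn and Cdhr2 was not made. Of 20 considered genes 7 were higher, among them the scoring gene Tmigd1, and 0 lower, with a median of 0.70. Against mature enterocytes the median was 0.13 and the genes just named were not called. Cdhr2 was among the markers that chose those cells.

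Cholesterol synthesis genes were higher against both comparators. Hmgcs1, which makes HMG-CoA, was at 329.6, 254, 364, 302 and 357 ppm in Slc10a2 ileal enterocytes, against 111, 89.9, 127, 76.3 and 125 ppm in other enterocytes (1.59). Sqle, squalene epoxidase, was at 107 ppm, against 28.5 ppm (1.88), Cyp51, which demethylates lanosterol, at 166 ppm, against 52.9 ppm (1.63), and Fdps, which makes farnesyl diphosphate, at 138 ppm, against 48.4 ppm (1.49). The lowest set of the Slc10a2 ileal enterocytes was above the highest set of the other enterocytes for each of them. Of 19 considered genes 7 were higher and 0 lower, with a median of 0.90. Against mature enterocytes 10 were higher and 0 lower, with a median of 1.04. Npc1l1, which takes up dietary cholesterol, was at 331 ppm, against 236 ppm (0.48).

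Some genes of fat absorption were lower, though not the list as a whole. Apoa4, an apolipoprotein of chylomicrons, was at 509, 275, 521, 323 and 559.5 ppm in Slc10a2 ileal enterocytes, against 4814, 2510.02, 6586, 866 and 5238 ppm in other enterocytes (-3.19). Its groups did not overlap. Apoc2, which activates lipoprotein lipase, was at 300.7 ppm, against 1884 ppm (-2.64), Fabp1, a cytosolic carrier of fatty acids, at 1946 ppm, against 6756 ppm (-1.80), and Apoc3, which inhibits the lipase, at 175 ppm, against 529.8 ppm (-1.59). The remaining 15 of 19 considered genes were not called, among them Apob (0.26) and Mttp (-0.25), which build chylomicrons. These 15 include Fabp2 (0.42) and Apoa1, which chose the other enterocytes. With these 2 left out, 17 genes were considered, of which 4 were lower and 0 higher. Against mature enterocytes the median of the list was -0.71, beside -0.11 against other enterocytes, and Apoa4 differed by -4.10 and Fabp1 by -2.69. That comparator was chosen in part on Apoc3 and Mttp.

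Sugar, retinoid and drug genes were lower in part. Lct, lactase, was at 58.6 ppm, against 233 ppm (-1.97), and Slc2a2, the basolateral glucose and fructose carrier, at 49.1 ppm, against 131 ppm (-1.40). The glucosidases Sis (0.73) and Mgam (0.78) and the sodium glucose carrier Slc5a1 (0.71) were not called. The median of the 15 carbohydrate genes was -0.03, and -0.94 against mature enterocytes. Rbp2, the retinol binding protein of enterocytes, was at 1029.96 ppm, against 3976 ppm (-1.95), and Adh1, which oxidises retinol, at 13.2 ppm, against 100.1 ppm (-2.83). Bco1, which cleaves beta-carotene, was at 19.3 ppm, against 6.90 ppm (1.36) and was not called against mature enterocytes (0.93). Of 26 considered drug metabolism genes 8 were lower and 3 higher, beside 12.7% and 3.47% of all genes. Cyp2b10 was at 6.50 ppm, against 58.8 ppm (-2.99), and Nr1i3, the receptor CAR that induces it, at 4.30 ppm, against 26.2 ppm (-2.36). Against mature enterocytes 14 drug metabolism genes were lower and 2 higher, beside 3.51% and 2.09% of all genes, with a median of -1.03.

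Among 24 considered regional transcription factors, 1 was higher and 4 lower, shares near the 3.47% and 12.7% of all genes, and the median was 0.17. Gata4, which maintains the jejunal program, was at 37.7, 14.1, 33.7, 37.0 and 25.3 ppm in Slc10a2 ileal enterocytes, against 154, 139, 114, 89.5 and 118 ppm in other enterocytes (-2.02). Its groups did not overlap. Onecut2 was at 10.8 ppm, against 95.3 ppm (-3.02) and Meis2 at 1.52 ppm, against 24.6 ppm (-3.34), and all 3 were also called lower against mature enterocytes. Prdm16, a zinc finger factor outside the lists, was at 1.53 ppm, against 64.5 ppm (-4.69). Maf, a bZIP factor, was at 1203 ppm, against 438 ppm (1.46) and was not called against mature enterocytes (0.70). Hoxb6, a homeobox factor, was at 19.4 ppm, against 9.46 ppm (0.96) and was not called against other enterocytes, but was called higher against mature enterocytes (2.22). Cdx1 (0.09) and Cdx2 (0.40), the factors of intestinal identity, were not called.

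Some purine handling genes of the villus tip were lower. Ada, adenosine deaminase, was at 47.1, 31.8, 29.5, 26.4 and 41.4 ppm in Slc10a2 ileal enterocytes, against 363, 204, 545, 48.7 and 544 ppm in other enterocytes (-3.24). Its groups did not overlap, although set 7 of the other enterocytes came close. Enpp3, an ectonucleotide pyrophosphatase, was at 14.0 ppm, against 124 ppm (-3.05). Slc28a2, a purine nucleoside transporter, was at 39.6 ppm, against 318 ppm (-2.98) and was not called, since set 7 had the opposite direction. Against mature enterocytes Ada (-4.02), Enpp3 (-3.72) and Slc28a2 (-3.76) were all called. Nt5e, of the same list, was 0 by the choice of cells, and the 8 other considered genes, of which 2 were lower, had a median of -0.62.

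Other genes with large differences fell outside the lists. Neu1, a lysosomal sialidase, was at 235 ppm, against 37.1 ppm (2.63), Ereg, an EGF receptor ligand, at 87.1 ppm, against 12.7 ppm (2.69), and Mfhas1 at 169 ppm, against 30.1 ppm (2.45). Slc25a4, the ADP and ATP carrier of the inner mitochondrial membrane and a member of the carrier list, was at 68.2 ppm, against 14.5 ppm (2.16), with groups that did not overlap. Each was also called higher against mature enterocytes, Neu1 by 1.97, Ereg by 2.13, Mfhas1 by 1.66 and Slc25a4 by 2.15. Among the lower genes, the growth factor receptor gene Igf1r was at 17.9 ppm, against 80.8 ppm (-2.11) and the tubulin gene Tubb5 at 36.3 ppm, against 93.0 ppm (-1.33). Against mature enterocytes Igf1r (0.81) and Tubb5 (0.49) had the opposite sign. Tubb5 was among the crypt markers that chose those cells.

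**Figure D2:**
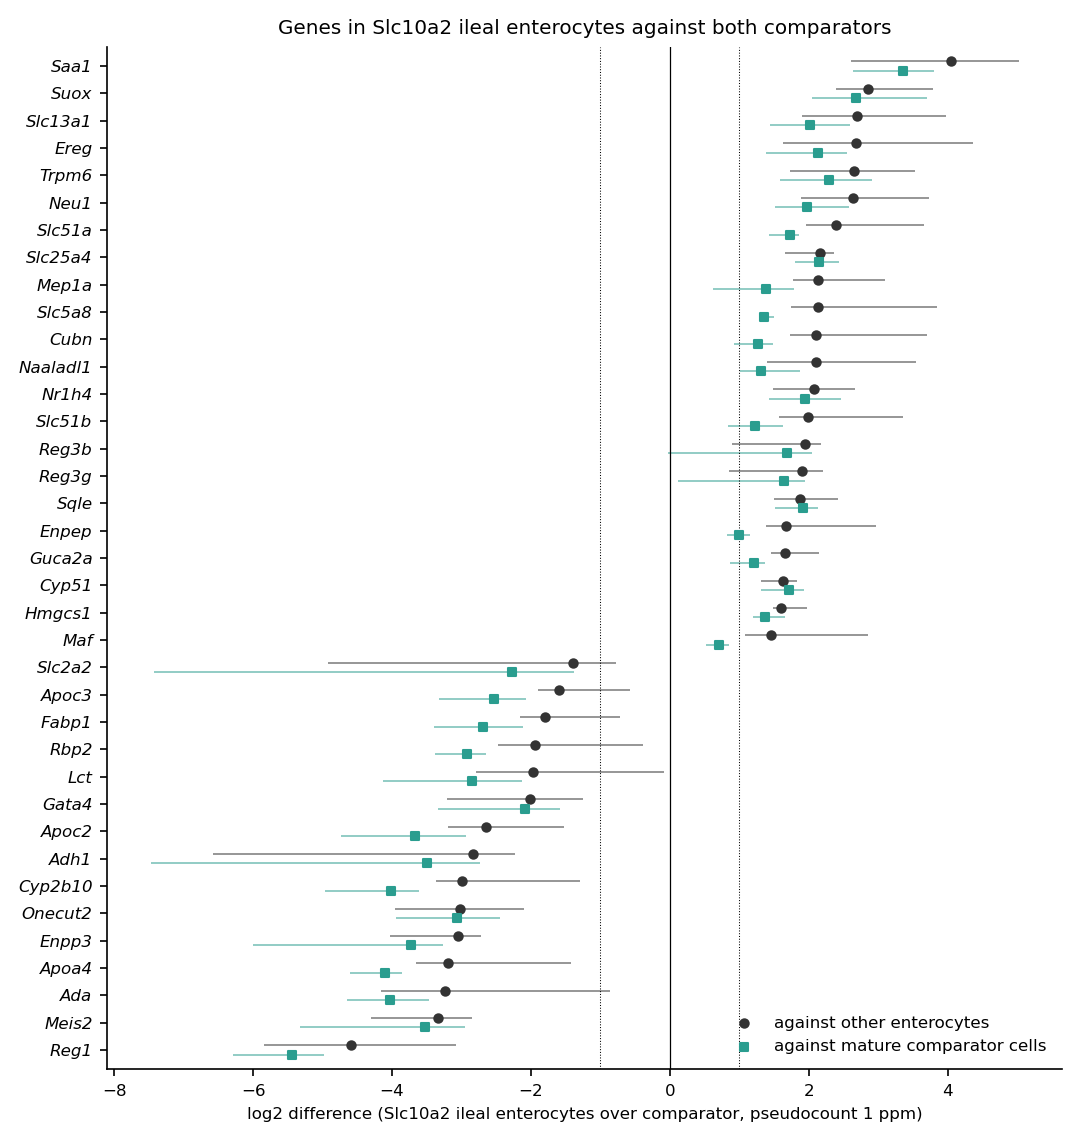
Log2 differences of genes described in the text. Black circles are Slc10a2 ileal enterocytes against other enterocytes, green squares are against mature enterocytes, and lines span the lowest and highest barcode set. Dotted lines mark 1 and -1. Most higher genes lie closer to 0 against mature enterocytes, and Apoa4 and Fabp1 lie farther below 0.

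Antimicrobial genes differed widely between barcode sets. Reg3b, a lectin that damages bacteria, was at 5996, 2771, 23668, 13208 and 21733 ppm in sets 1, 3, 6, 7 and 8 of the Slc10a2 ileal enterocytes, against 2248, 1489, 5996, 2960.5 and 4795 ppm in other enterocytes (1.95). Reg3g, its close relative, was at 2239.7, 1274, 10908, 6824 and 11040.2 ppm in Slc10a2 ileal enterocytes, against 997, 706, 2958, 1607 and 2401 ppm in other enterocytes (1.90). Sets 6, 7 and 8 were the high sets and sets 1 and 3 the low ones. Saa1, serum amyloid A of the acute phase, was at 69.7, 14.1, 637, 238 and 1027 ppm in Slc10a2 ileal enterocytes, against 4.65, 1.48, 49.2, 6.36 and 53.5 ppm in other enterocytes (4.05). The groups overlapped for each of these genes when sets were not matched, and the Slc10a2 ileal enterocytes were higher within every set. Among 3289 genes of at least 50 ppm, Saa1, the enteroendocrine hormone Gip, Reg3g and Reg3b had the highest ratios of the highest set to the lowest (10 ppm added). The ratio was 43.0 for Saa1 in Slc10a2 ileal enterocytes, against 5.53 in other enterocytes, and 8.51 for Reg3b, against 4.01. The median gene had 1.58, against 1.55.

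**Figure D3:**
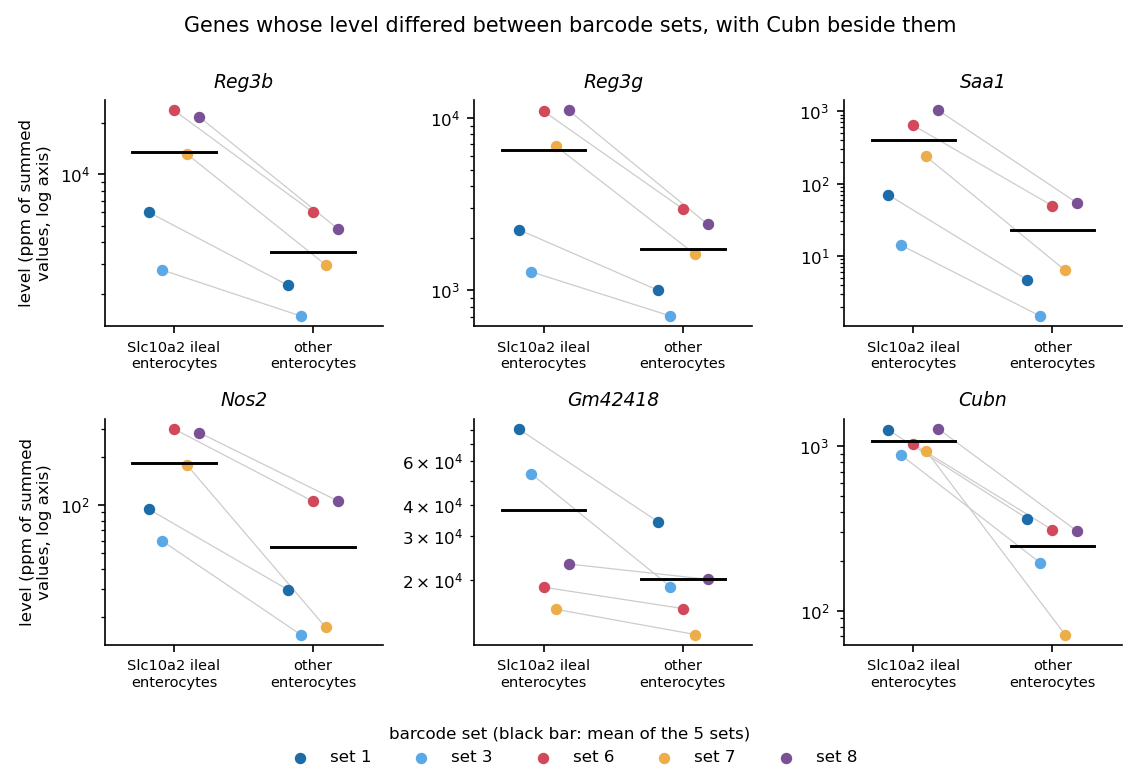
Levels (ppm, log axis) of Reg3b, Reg3g, Saa1, Nos2, Gm42418 and Cubn in Slc10a2 ileal enterocytes (left) and other enterocytes (right). Points are barcode sets, grey lines join the same set, and black bars are the mean of the 5 sets. On the left, sets 6, 7 and 8 lie above sets 1 and 3 for Reg3b, Reg3g, Saa1 and Nos2 and below them for Gm42418, and Cubn spans 886 to 1273 ppm.

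Gm42418, a transcript that overlaps ribosomal RNA, ran the other way over the sets. It was at 80576, 53308, 18706, 15250.1 and 23182 ppm in sets 1, 3, 6, 7 and 8 of the Slc10a2 ileal enterocytes, against 34289, 18826, 15369, 12092 and 20126 ppm in other enterocytes. Its part in the levels of Reg3b, Reg3g and Saa1 was not tested. With sets 1 and 3 left out, an alternative added after these values had been seen, Reg3b differed by 2.09 and Saa1 by 4.09. Nos2, inducible nitric oxide synthase, was at 94.2, 60.0, 300.4, 179.8 and 285 ppm in Slc10a2 ileal enterocytes, against 29.5, 15.4, 106, 17.1 and 106 ppm in other enterocytes (1.73). Reg1, another member of the Reg family, was lower, at 51.3 ppm, against 1264 ppm (-4.60). Against mature enterocytes Saa1 (3.36), Reg3g (1.64) and Reg1 (-5.44) were called. Reg3b (1.68) was not, since in set 3 it was at 2771 ppm in Slc10a2 ileal enterocytes, against 2836 ppm in mature enterocytes. Reads of Reg3b and Reg3g, or of Saa1 and Saa2, may be shared. In the antimicrobial and barrier list 5 of 19 genes were higher and 2 lower, and the median of -0.06 had the other sign in 8 of 18 alternatives.

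Several lists held few or no calls. None of the 14 MHC class II and antigen presentation genes, of the 16 dissociation stress genes or of the 22 respiratory chain genes was called, and the medians were 0.14, 0.06 and -0.42. The median share of mitochondrially encoded transcripts was 6.42% in Slc10a2 ileal enterocytes, against 8.49% in other enterocytes. Of 12 interferon response genes 1 was called, Apol9a, at 12.1 ppm, against 27.8 ppm (-1.14), and without set 1 or without set 6 it was not (-0.85 and -0.98).

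**Figure D4:**
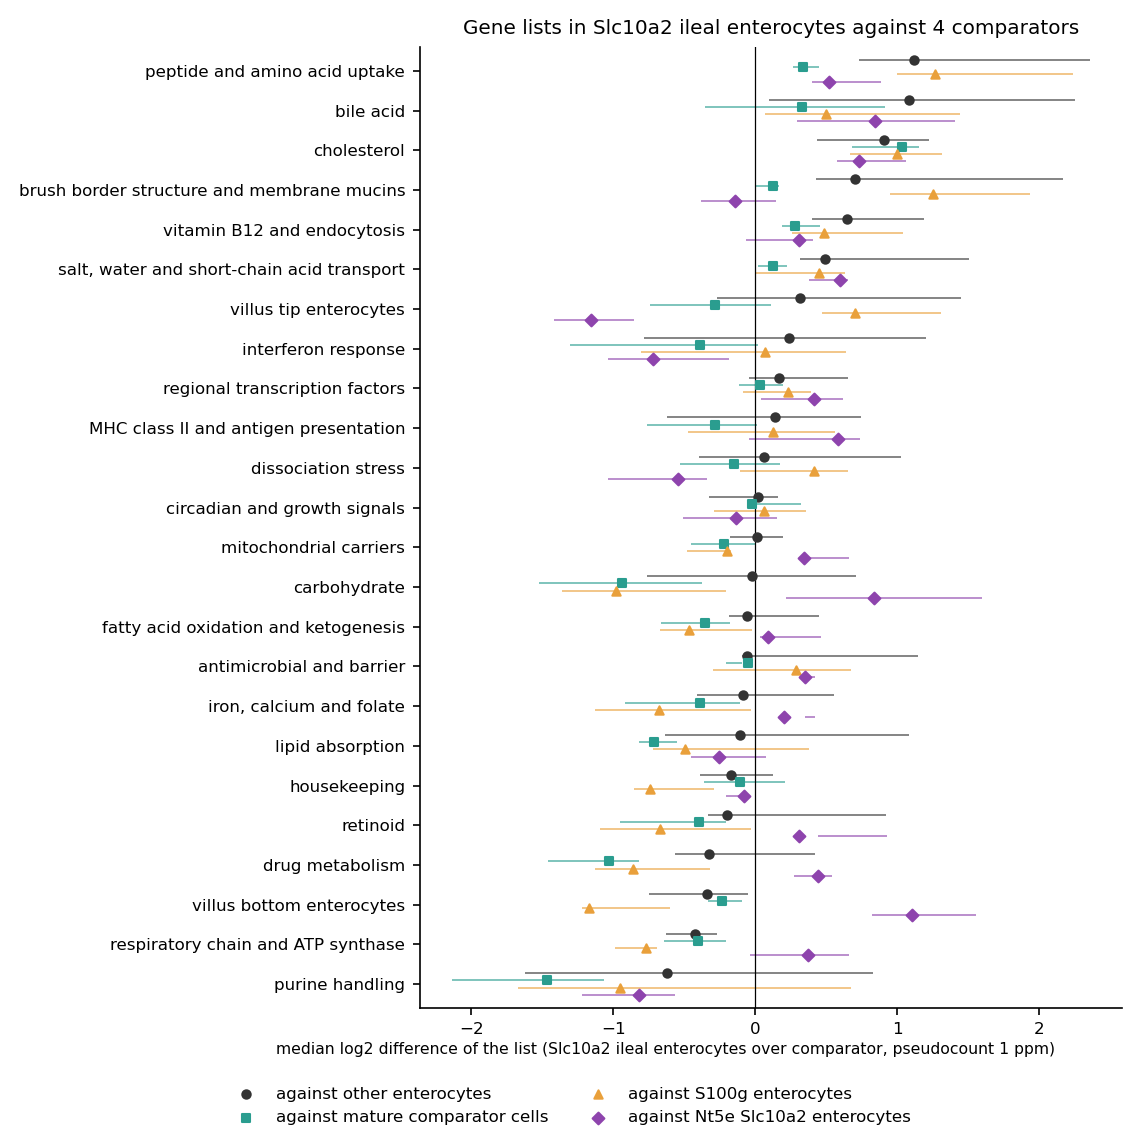
Median log2 difference of 24 gene lists in Slc10a2 ileal enterocytes against 4 comparators. Points are medians over the considered genes of a list that did not choose the cells compared, from levels averaged over sets, and lines span the medians of the single sets, so that a point can lie off its line. The bile acid list lies between 0.33 and 1.08 and the purine list between -1.47 and -0.62, with single sets below 0 for the bile acid list against mature enterocytes and above 0 for the purine list against other enterocytes and S100g enterocytes.

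The S100g enterocytes, 2824 enterocytes with S100g and without Slc10a2, stood for the upper intestine. Of 8330 genes considered, 586 (7.03%) were higher in Slc10a2 ileal enterocytes and 1372 (16.5%) lower. Without rescaling, that is with the mean value per cell in place of the share of the summed values of a group, these counts were 331 and 2090. The S100g enterocytes had a median summed value of 6204.5 and 2364 detected genes. Slc51a was at 1081 ppm, against 163 ppm (2.72), and Nr1h4 at 566 ppm, against 107 ppm (2.39). Cubn was at 1077 ppm, against 89.7 ppm (3.57), Naaladl1 at 1030.4 ppm, against 99.6 ppm (3.36), and Trpm6 at 181 ppm, against 10.3 ppm (4.01). For each of these the lowest set of Slc10a2 ileal enterocytes was above the highest set of S100g enterocytes.

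Some genes of iron, folate, vitamin A and sugar handling were lower than in S100g enterocytes, and other genes of the iron and vitamin A lists were higher. Slc46a1, the proton-coupled folate transporter, was at 3.76 ppm, against 45.0 ppm (-3.27), and Slc40a1, the iron exporter ferroportin, at 25.8 ppm, against 132 ppm (-2.32). Of the 8 considered iron, calcium and folate genes other than S100g, 3 were lower and 2 higher, the calcium pump gene Atp2b1 (1.19) and Heph, a ferroxidase (1.02). Of 10 retinoid genes 4 were lower and 3 higher, namely Bco1 (1.94), Rdh16 (1.86) and Isx (1.02). Adh1 was at 13.2 ppm, against 267 ppm (-4.24), Slc2a2 at 49.1 ppm, against 310.2 ppm (-2.63), and Cd36, a fatty acid receptor, at 3.83 ppm, against 40.4 ppm (-3.10). Akp3, an alkaline phosphatase of the upper intestine, was at 1.57 ppm, against 62.4 ppm (-4.62), and Tmprss15, the enteropeptidase of the duodenum, at 1.03 ppm, against 47.0 ppm (-4.56). Reg1 was at 51.3 ppm, against 6033 ppm (-6.85), the difference farthest from 0 among the genes named. Pdx1, a factor of the duodenum, was listed at 0 in all 5 sets of Slc10a2 ileal enterocytes, against 12.5 to 31.4 ppm in S100g enterocytes. Carbohydrate genes were lower in 7 of 15 and higher in 0 (median -0.98), and drug metabolism genes lower in 13 of 26 and higher in 2 (median -0.86).

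Brush border genes were higher than in S100g enterocytes in 13 of 20 and lower in 2, the scoring gene Tmigd1 left out, with a median of 1.25. The 2 lower genes were Akp3 and Alpi, an alkaline phosphatase gene among the enterocyte markers. Both were also called lower against mature enterocytes, which were chosen in part on Alpi. Clca4b was at 1464 ppm, against 298 ppm (2.29), and its close relative Clca4a may share reads with it. Saa1 was at 397 ppm, against 5.23 ppm (5.999). The early-response genes Nfkbia and Junb were at 127 ppm, against 48.2 ppm (1.38) and 136 ppm, against 63.9 ppm (1.07). Enterocyte markers summed to 28862 ppm in Slc10a2 ileal enterocytes, against 14816 ppm in S100g enterocytes, and stem cell markers to 635 ppm, against 1480.2 ppm. The part of maturity in the values of this comparison was not tested.

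The Nt5e Slc10a2 enterocytes, 174 cells with both genes and without S100g, could be compared in sets 1, 6 and 8. Of 7453 genes considered, 549 (7.37%) were higher in Slc10a2 ileal enterocytes and 329 (4.41%) lower, and without rescaling 436 and 410. Slc28a2 was at 33.9, 5.27 and 65.5 ppm in the 3 sets of Slc10a2 ileal enterocytes, against 1257, 1199 and 2012 ppm in Nt5e Slc10a2 enterocytes (-5.38). Ada was at 47.1, 29.5 and 41.4 ppm in Slc10a2 ileal enterocytes, against 961, 1609.7 and 2236 ppm in Nt5e Slc10a2 enterocytes (-5.31). Apoa4 was at 509, 521 and 559.5 ppm in Slc10a2 ileal enterocytes, against 8126, 9985 and 9084 ppm in Nt5e Slc10a2 enterocytes (-4.09). The groups did not overlap for any of these genes. Of the 17 considered villus tip genes other than Nt5e, 11 were lower and 0 higher (median -1.15). Of the 12 villus bottom genes 7 were higher and 0 lower (median 1.11). These cells were chosen for Nt5e, a gene of the villus tip, and the Slc10a2 ileal enterocytes for its absence. Against other enterocytes, 3 of 17 villus tip genes other than Nt5e were higher and 3 lower (median 0.32). Of 14 villus bottom genes, 2 were higher and 5 lower there (median -0.34).

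Further genes were lower than in Nt5e Slc10a2 enterocytes. Prdm1, a transcriptional repressor, was at 6.001 ppm, against 64.6 ppm (-3.23), Cldn4, a tight junction claudin, at 13.8 ppm, against 217 ppm (-3.88), and Creb3l3, a factor of lipid metabolism, at 244 ppm, against 781 ppm (-1.68). The early-response genes Jun and Atf3 were at 248 ppm, against 727 ppm (-1.55) and 56.4 ppm, against 179.9 ppm (-1.66), and 6 of 18 dissociation stress genes were lower in all. Enterocyte markers summed to 30357 ppm in Slc10a2 ileal enterocytes, against 43821 ppm in Nt5e Slc10a2 enterocytes. The part of stress or of maturity in these values was not tested.

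Slc51a was at 1162 ppm, against 402 ppm (1.53) and Cubn at 1185 ppm, against 409 ppm (1.53) in the same sets. Abcc3, which was not called against other enterocytes, was called higher against Nt5e Slc10a2 enterocytes. Carbohydrate genes, which included 7 lower ones against S100g enterocytes, were higher here in 6 of 15 and lower in 0. Sis was at 2097, 2721 and 2694 ppm in Slc10a2 ileal enterocytes, against 922, 1014 and 581 ppm in Nt5e Slc10a2 enterocytes (1.58). Reg3b was at 5996, 23668 and 21733 ppm in Slc10a2 ileal enterocytes, against 1850.4, 6955 and 3548 ppm in Nt5e Slc10a2 enterocytes (2.06). For Sis the groups did not overlap, while for Reg3b they overlapped when sets were not matched. H2-Aa and H2-Ab1, chains of MHC class II, were at 27.1 ppm, against 6.29 ppm (1.95) and 58.6 ppm, against 17.7 ppm (1.67). Aldh1a1, which makes retinoic acid, was at 220.5 ppm, against 60.1 ppm (1.86), and Slc25a4 at 73.0 ppm, against 8.71 ppm (2.93). The comparisons share the Slc10a2 ileal enterocytes, so their values stand side by side and are not independent.

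Among themselves the 600 cells were uneven. All 6 scoring genes had a value in 40 cells, 5 in 177, 4 in 263 and 3 in 120. Tmigd1 had a value in 587 cells, Slc25a48 in 267, Fgf15 in 250 and Abi3bp in 233. Summed over its genes, the vitamin B12 list had a 90th percentile over cells 3.64 times its 10th, the cholesterol list 4.11 times, the bile acid list, which holds Fabp6, 8.09 times and the antimicrobial list 12.3 times. Reg3b had a median of 6382 ppm per cell, with 686 ppm at the 10th and 40018 ppm at the 90th percentile. Saa1 had a value in 39.5% of the cells, against 2.66% of other enterocytes. Apoa4 had a value in 360 of the cells and Ada in 63. Car1, a carbonic anhydrase known from the colon, had a value in 6 of the cells, 1% (exact binomial 95% interval 0.368 to 2.16), beside 0.683% of other enterocytes.

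Several levels declined along the score, in ranges of ranks too wide to show whether a break lies at 600. In sets 1, 3, 6 and 8, which had at least 30 cells in each range of ranks, Slc51a averaged 1206, 1018, 805 and 349.9 ppm in ranks up to 300, from there to 600, from there to 1200 and beyond. Cubn averaged 1268, 935, 688 and 430.3 ppm in the same ranges, and Slc13a1 1279.5, 1119, 772 and 250.2 ppm. Nr1h4, at 562, 633, 506 and 242 ppm, was highest in the second range. Apoa4 averaged 433, 504, 1071 and 5103 ppm and Ada 32.6, 44.1, 82.7 and 198 ppm, so that both were highest beyond 1200. Krt20, a keratin of mature villus cells, averaged 1138, 1013, 922 and 999 ppm, and Lgr5, the stem cell gene, 8.88, 32.2, 13.9 and 109.7 ppm. Ranks are positions in the score, so these values describe it.

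**Figure D5:**
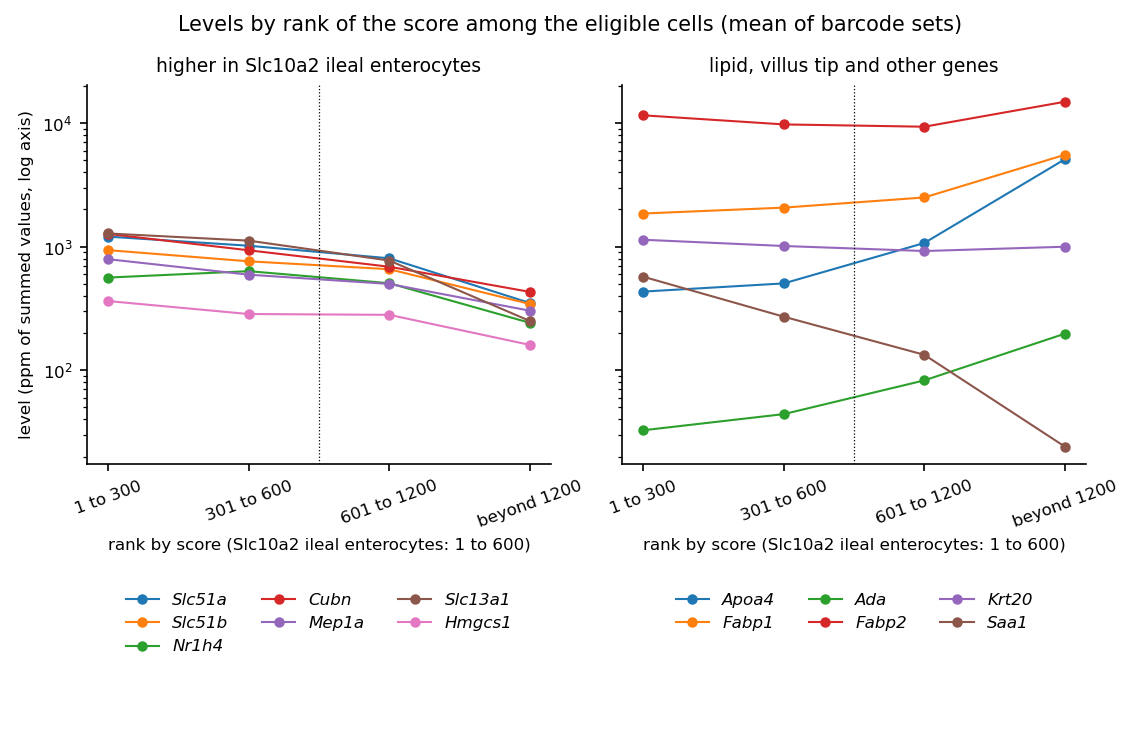
Level (ppm, log axis) of genes by rank of the score among the 1926 eligible cells, as the mean of barcode sets 1, 3, 6 and 8. The dotted line marks the boundary of the Slc10a2 ileal enterocytes at 600. Slc51a, Cubn and Slc13a1 decline over the ranks, Apoa4 and Ada are highest beyond 1200, and Krt20 stays between 922 and 1138 ppm.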

How the data were processed

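Single-cell RNA was measured in epithelial cells of the 8 diet samples. The authors deposited 1 table of whole-number values per gene and cell, and the submitters' processing notes name Cell Ranger and mm10. These deposited values were taken as a score and not as counts, because 25.3% of cells held the value 2 more often than the value 1. Neither the labels' protocols nor the file's header state the step by which the authors made these score values. The count tests planned on the labels were therefore not used. Summed values per cell ran from 2764 to 9739.

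The sources used here give no Cell Ranger version. Levels, differences and calls were computed with numpy 2.4.6, scipy 1.17.1 and pandas 2.3.3 in Python 3.11.15, and figures with matplotlib 3.10.9. The procedure was tested on simulated data. The cells and the gene lists were chosen with earlier results of these data known. Named genes were the scoring genes, up to 4 called genes per list with the largest difference (2 against S100g or Nt5e Slc10a2 enterocytes) and the largest outside the lists (8 or 5 in each direction). Uncalled list members could be named. Slc7a8, Nos2, Rdh9, Atp2b1, Heph, Rdh16, Isx and genes called against mature enterocytes alone were named after their values had been seen. Mature enterocytes had at least the 10th percentile of Slc10a2 ileal enterocytes for the sum of Alpi, Apoc3, Anpep, Vil1, Cdhr2, Cdhr5, Krt20 and Mttp, and at most their 90th percentile for stem and transit-amplifying markers. Scrublet (scanpy 1.11.5) marked 45 cells (0.161%), 2 of them among the Slc10a2 ileal enterocytes, a share too low to show that the caller worked, so no doublet was removed. Gene coordinates are from GENCODE M21.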

Additional observations from a re-analysis of the deposited data

Results flagged for a closer look

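For each of 80 named genes outside the score, and for the share of Slc10a2 ileal enterocytes per set, 81 groups of barcode sets in all, the set farthest from the rest was examined, and in 15 it stood apart, where chance gives about 1 in 20. All values are log2 differences of Slc10a2 ileal enterocytes over other enterocytes. Set 7 stood above the other sets for Cubn (3.70, others 1.73 to 2.17), Xpnpep2 (3.42, others 1.75 to 1.94), Lgmn (3.46, others 1.35 to 1.56), Pdzk1 (3.004, others 1.03 to 1.48), Enpep (2.97, others 1.39 to 1.81), Amn (2.61, others 0.63 to 0.91) and Hmgcs1 (1.97, others 1.49 to 1.56). Set 7 was also nearer to 0 for Apoa4 (-1.42, others -3.66 to -3.18), Cyp2b10 (-1.29, others -3.37 to -2.97) and Rbp2 (-0.39, others -2.47 to -1.99), and farther below 0 for Cenpe (-6.22, others -3.21 to -3.09). In set 7 the enterocyte markers of the other enterocytes were the lowest of the 5 sets, at 6712 ppm. Its part in these values was not tested. Set 3 stood below the others for Kcnq1ot1 (-9.17, others -3.91 to -2.38), Adh1 (-6.57, others -2.70 to -2.22) and Slc25a45 (-3.08, others -1.31 to -0.76), and set 1 for Slc25a4 (1.66, others 2.20 to 2.36). Kcnq1ot1 and Adh1 in set 3 and Cenpe in set 7 were at 0 ppm in Slc10a2 ileal enterocytes. Their differences there rest on the 1 ppm added. Slc25a45 was at 3.53 ppm in set 3. Sets 3 and 7 held 66 and 36 of the cells.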

How the results depend on the processing

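Counts are given as higher and lower in Slc10a2 ileal enterocytes. With a pseudocount of 10 ppm, 584 genes were lower than in other enterocytes, 741 lower than in S100g enterocytes, and 224 higher and 208 lower than in Nt5e Slc10a2 enterocytes. With no minimum level the counts were 2511 lower, 2719 lower and 1382 higher in the same order of comparators. With a minimum of 50 ppm they were 189 higher and 243 lower, 380 lower, and 133 higher and 176 lower. With cells matched on detected genes 643 and 796 genes were lower than in other and S100g enterocytes. Without rescaling 188 genes were higher than in other enterocytes, and 331 were higher and 2090 lower than in S100g enterocytes. The median of all genes was then -0.26, -0.48 and 0.02 against the comparators, beside -0.13, -0.20 and 0.11. With the 1200 highest-scoring cells 675 genes were lower than in S100g enterocytes. Against mature enterocytes 162 were higher and 272 lower, and Igf1r (0.81) and Tubb5 (0.49) had the opposite sign, while Tubb5 was used to choose those cells. The cause of the other changes was not tested.

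Leaving out 1 barcode set in turn gave 208 to 381 higher and 935 to 1220 lower genes against other enterocytes, 503 to 635 and 1399 to 1459 against S100g enterocytes, and 652 to 742 and 367 to 470 against Nt5e Slc10a2 enterocytes. Of 1462 differences of named genes under the alternatives, 1395 moved by less than the spread over sets, 65 by more in the same direction and 2 changed sign. Of 432 list medians, 419 moved by less than that spread. With the genes that chose the cells left out, an alternative added after the data had been seen, the bile acid median was 1.08, beside 2.03 with them. No paired analysis was possible because the table does not assign cells to samples. A comparison with enterocytes carrying Car1 and Gsdmc genes was not run, since these were 35 cells and no set held 30 of them. Precision is limited by sets of 36 to 169 Slc10a2 ileal enterocytes, and genes near 10 ppm rest on few cells.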
